A study of Coelastrella tenuitheca with 9 samples.

Results

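The comparison described here set cultures of a green microalga grown with 50 mg/L CdCl2 (Cd50) against cultures grown with 20 mg/L (Cd20), across all genes measured. The organism was Coelastrella tenuitheca strain S93-3, a wild-type freshwater alga kept in glucose-containing medium under continuous light and then exposed for 7 days. By its title the study is about the removal of cadmium by this strain. The libraries entering the comparison were chosen by their labelled dose alone, 3 for Cd50 and 3 for Cd20, out of 9 in the series. The other 3 libraries, from cultures grown for the same time without CdCl2 (Control), are shown only as a level. They also entered the fit that estimated the spread, but are on neither side of the contrast. Poly(A) RNA of whole cultures was sequenced in strand-specific libraries, all of 1 labelled batch.

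Cadmium binds to thiol groups and takes the place of zinc and other metals in proteins. Plants and algae are known to hold it with glutathione and with phytochelatins, peptides made from glutathione, and to move it into the vacuole with ATP-driven pumps. Because the metal can enter through carriers for zinc and iron and its handling consumes reduced sulfur and reducing power, the genes of metal transport, sulfate assimilation, redox enzymes and NADPH supply are commonly followed in such cultures. Growth, by contrast, is read in the genes that build ribosomes and replicate DNA.

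Levels are given below as CPM, a count per gene adjusted for depth by TMM factors (a trimmed-mean correction for differences in RNA composition), for the libraries 1 to 3 of each group. A gene was called higher or lower when the Benjamini-Hochberg adjusted p of edgeR's quasi-likelihood test, over all genes tested, was under 0.05. The labels leave unsaid whether a group's libraries are separate cultures, so each p-value reflects spread among samples that could be technical in origin. In such bulk samples fewer cells of a kind and less RNA per cell cannot be told apart. Only 1336 of 12605 genes (10.6%) carried an informative product name, many of them borrowed from fungi, and a name therefore marks likeness to a protein of another organism. Reads of near-identical copies and of overlapping genes may have been divided between them in a way the sources used here do not give, and values of genes with the same product name are uncertain to that extent.

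The total count assigned to genes was 10457007 to 11539763 in Cd50 libraries, 10801254 to 12692083 in Cd20 libraries and 12141901 to 15456743 in Control libraries. One library stood apart from its group: on the first principal component (60.6% of the variance) Cd50 1 lay at -17.7 whereas Cd50 2 and 3 lay at -51.3 and -52.7, against 45.0 to 58.1 in Cd20. Control 1 was also apart, at 12.2 beside -29.0 and -13.8 in Control 2 and 3; without it 4068 genes were higher and 3940 lower in the comparison of Cd50 with Cd20 given next. The labelled cell type was checked by its photosynthesis genes. The Rubisco small subunit (A03462) was counted at 1445, 1190 and 1215 CPM in Cd50, against 1131, 1030 and 1090 CPM in Cd20 and a Control mean of 2221 CPM.

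Of 11140 genes tested, 3928 (35.3%) were higher and 3865 (34.7%) lower in Cd50 than in Cd20, so that 7793 genes (70.0%) were called. Among them, 1865 genes (16.7% of those tested) were at least 2-fold higher and 1038 (9.32%) at least 2-fold lower. The numbers were 2141 and 1577 without Cd50 1, and 3088 and 402 with library size alone. A fold of 4 or more was reached by 202 higher and 57 lower genes, and 25.2% of the calls were smaller than 1.5-fold. The 3 Cd50 libraries did not overlap the 3 Cd20 libraries in 7569 called genes (67.9% of those tested). The even split between higher and lower genes depended on the scaling. With library size alone 5440 genes (48.8%) were higher and 2262 (20.3%) lower, and the median log2 fold change of all genes was 0.39 in place of 0.03. The share of calls that were higher was thus 50.4% with TMM and 70.6% with library size alone.

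The direction of change followed the level of a gene. Genes were divided by their mean FPKM (a level per length of gene) in the Control libraries, which take no part in the contrast. Of the 1430 genes between 1 and 3 FPKM, 46.6% were higher and 10.8% lower in Cd50, with a median log2 fold change of 0.59. Of the 483 genes at 300 FPKM or more, 17% were higher and 61.9% lower, with a median of -0.36. With library size alone these medians were 0.95 and -0.01, so the order from weakly to strongly expressed genes was kept while the fall of the strongly expressed genes was not. The 8910 genes under 30 FPKM in Control took 14.4%, 16.3% and 16.2% of all counts in Cd50, against 12.7%, 13.1% and 13.0% in Cd20 and 11.9% to 12.8% in Control. No Cd50 library overlapped a Cd20 library in this share, and Cd50 1 lay nearest to Cd20. The number of genes that together held 50% of the counts was 424, 467 and 456 in Cd50, against 380, 402 and 394 in Cd20 and 424 to 436 in Control.

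**Figure D1:**
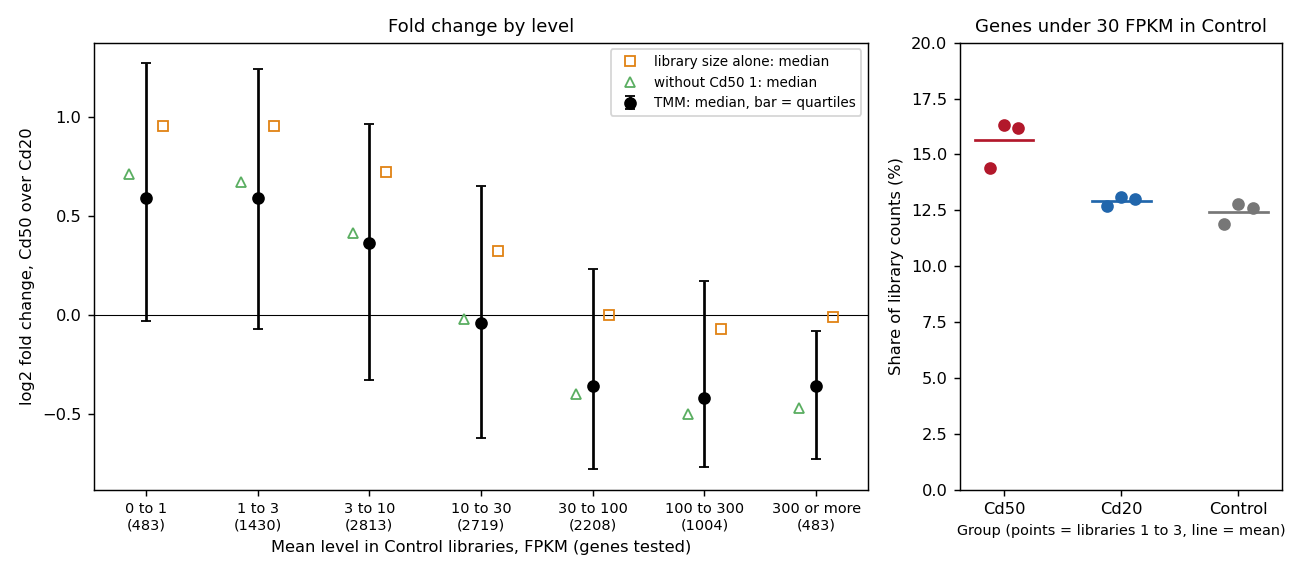
Left, median log2 fold change of Cd50 over Cd20 (vertical axis) for genes grouped by mean FPKM in Control libraries (horizontal axis, genes tested in brackets): black points are TMM with quartile bars, squares library size alone, triangles the fit without Cd50 1. Right, percent of library counts from genes under 30 FPKM in Control, with points for libraries and a line for the mean. Black points pass from 0.59 in the weakest classes to -0.36 in the strongest, where the squares lie at -0.01.

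Most changed genes had Control levels between those of the cadmium groups. Among the 3928 higher genes, the Control mean lay between the Cd50 and Cd20 means in 2737 (69.7%), above both in 844 (21.5%) and below both in 347 (8.83%). Among the 3865 lower genes it lay between in 2420 (62.6%), above both in 657 (17.0%) and below both in 788 (20.4%). Genes are called because their Cd50 and Cd20 means differ, which widens the interval a Control mean can fall into. The same shares over all genes tested were not computed, so nothing is drawn from these counts.

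From words in the product names, 30 lists of genes were drawn up and are given by counts and medians. Medians of 21 lists lay above the median of all genes and medians of 9 lists below it. The lists for flagella, pentose phosphate and starch, glutathione, reductases, lipids and the cytoskeleton had the highest medians. Those for phosphate uptake, ribosome assembly, RNA processing, protein kinases and ribosomal proteins lay low, the carotenoid list with 3 tested members aside.

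**Figure D2:**
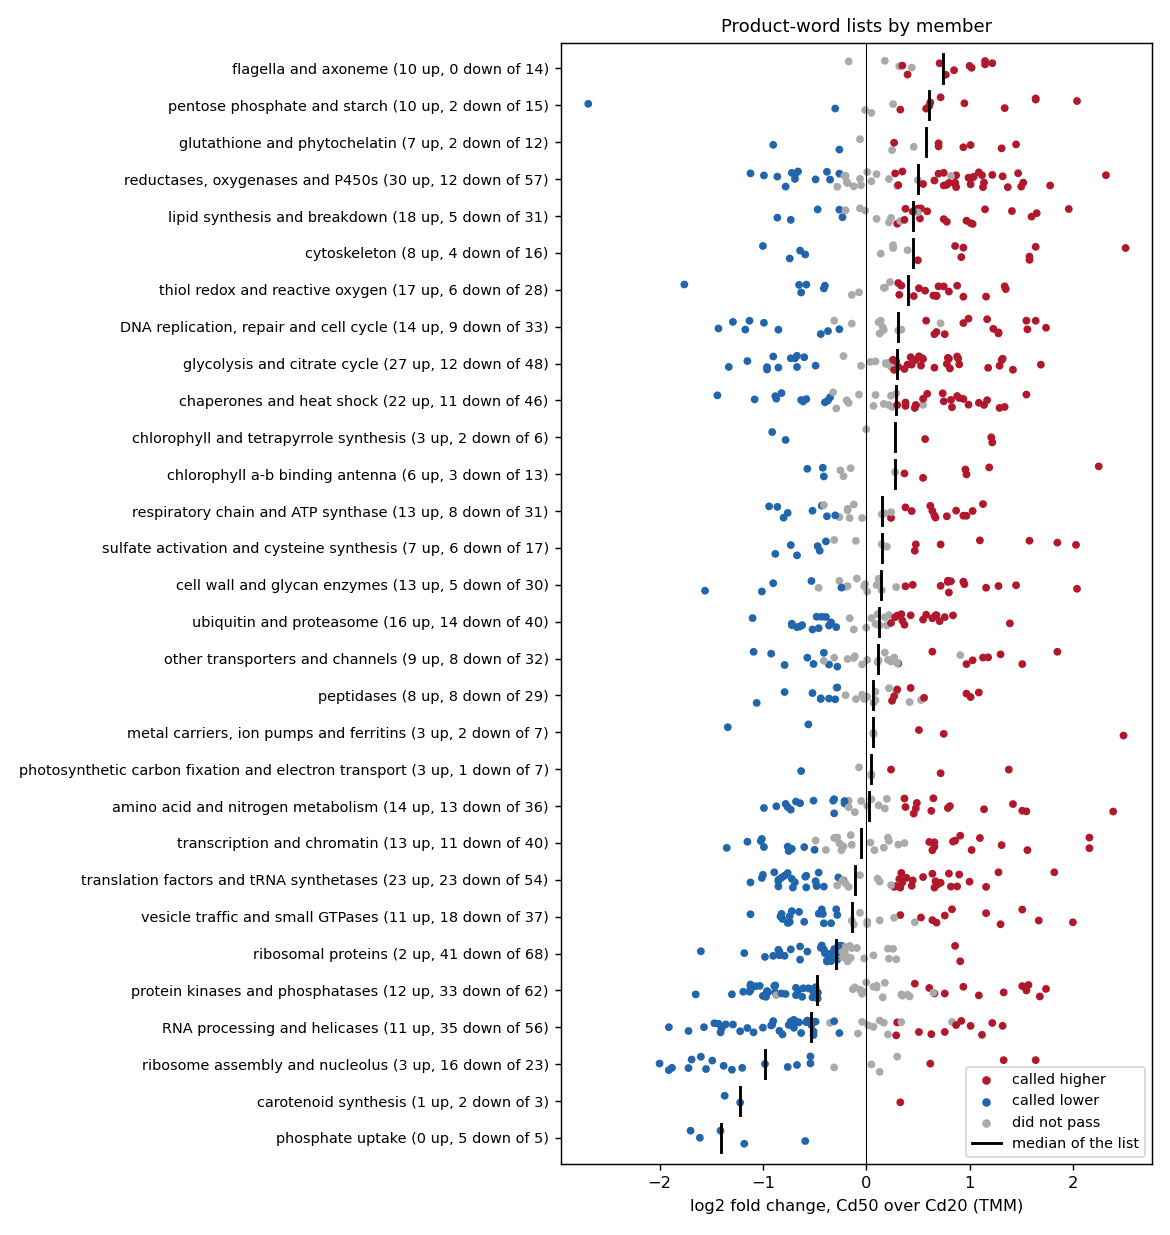
Log2 fold change of Cd50 over Cd20 with TMM (horizontal axis) for each tested member of the 30 product-word lists, 1 list per row, red for called higher, blue for called lower and grey for not passed; the black line is the list's median. Lists at the top have most members right of 0 and those at the bottom left of it; with library size alone all medians move right and that of the ribosomal proteins is 0.07.

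The list of metal carriers, ion pumps and ferritins had 7 tested members, of which 3 (42.9%) were higher and 2 (28.6%) lower, shares near the 35.3% and 34.7% of all genes. What follows is therefore about single genes. The gene with the largest rise was A06061, named a Cu-transporting P-type ATPase, a pump family that moves copper ions across membranes with ATP; it lies on chromosome 3 from 864607 to 872347 in the deposited coordinates. It was counted at 7.46, 10.2 and 9.19 CPM in Cd50, against 1.35, 2 and 1.35 CPM in Cd20 and a Control mean of 4.84 CPM. Every Cd50 library lay above every Cd20 library (log2 fold change 2.49, SE 0.39, edgeR adjusted p = 0.000215). The zinc/iron permease A07895, of a carrier family that brings divalent metals into the cell, was counted at 88.2, 25.9 and 29.7 CPM in Cd50, against 101, 102 and 161 CPM in Cd20 and a Control mean of 809 CPM. The groups did not overlap, though Cd50 1 lay close under the Cd20 libraries (log2 fold change -1.34, SE 0.38, edgeR adjusted p = 0.00784), and without Cd50 1 the value was -2.13.

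The E1-E2 ATPase A10982, also of the ion-pumping ATPases, had a far lower Control level and nearly the same level at both doses. It was counted at 405, 542 and 576 CPM in Cd50, against 518, 488 and 447 CPM in Cd20 and a Control mean of 73.1 CPM. The groups overlapped, and the log2 fold change of 0.07 (SE 0.13) did not pass with edgeR (adjusted p = 0.64), although with library size alone it was 0.44 and passed (edgeR adjusted p = 0.0164). Of the ferritin-like proteins, a family that stores iron, A04541 rose to 48.9 ± 5.63 CPM in Cd50, against 29.2 ± 0.515 CPM in Cd20 (SD, n = 3 each). The other, A01264, stood at 106 ± 0.599 CPM in Cd50 and 100 ± 6.33 CPM in Cd20 (SD, n = 3 each) and did not pass. The calcium pump A01604 fell by 0.56 on the log2 scale, a call not kept with library size alone (-0.20), and the cation-transporting ATPase A00017 rose by 0.51.

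The glutathione list rose on balance, while the genes of glutathione and phytochelatin synthesis moved little. Of its 12 tested members 7 (58.3%) were higher and 2 (16.7%) lower, beside 35.3% and 34.7% of all genes, with a median log2 fold change of 0.58 against 0.03 over all genes. Glutathione reductase A06116, which returns oxidised glutathione to its reduced form with NADPH, was counted at 73.0, 92.2 and 88.3 CPM in Cd50, against 38.5, 33.5 and 30.4 CPM in Cd20 and a Control mean of 87.9 CPM. All Cd50 libraries were above all Cd20 libraries, at about the Control level (log2 fold change 1.31, SE 0.15, edgeR adjusted p = 4.66e-05). A second gene of that name, A08104, had 69.0 ± 1.5 CPM in Cd50 and 72.2 ± 3.35 CPM in Cd20 (SD, n = 3 each) and did not pass.

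Glutamate-cysteine ligase (A01378), which makes the precursor of glutathione, had 31.4, 34.7 and 38.4 CPM in Cd50, against 29.3, 26.7 and 32 CPM in Cd20 and a Control mean of 13.4 CPM. The groups overlapped and the log2 fold change of 0.25 (SE 0.13) did not pass with edgeR (adjusted p = 0.102); without Cd50 1 it passed (0.31). The phytochelatin synthase-domain gene A02769 had 76.6, 77.4 and 74.8 CPM in Cd50, against 97.2, 96.4 and 81.0 CPM in Cd20 and a Control mean of 61.2 CPM. The groups did not overlap and it was called lower (log2 fold change -0.26, SE 0.10, edgeR adjusted p = 0.0394), but its sign turned with library size alone (0.10, edgeR adjusted p = 0.44). The call was lost without Cd50 2 (-0.27), Cd50 3 (-0.24), Cd20 1 (-0.18) or Cd20 2 (-0.23). Glutathione S-transferases, which join glutathione to other compounds, differed among themselves. A02067 rose to 410 ± 51.3 CPM in Cd50, against 253 ± 18.2 CPM in Cd20, and A00337 to 69.8 ± 9.21 CPM in Cd50, against 36.4 ± 4.37 CPM in Cd20 (SD, n = 3 each). A10304 fell to 5.38 ± 1.18 CPM in Cd50, against 10.1 ± 0.241 CPM in Cd20 and a Control mean of 0.654 CPM (SD, n = 3 each).

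Sulfate activation supplies sulfur for cysteine and so for glutathione. In the list of sulfate activation and cysteine synthesis, 7 of 17 tested members (41.2%) were higher and 6 (35.3%) lower, near the 35.3% and 34.7% of all genes. Words in the names also drew iron-sulfur proteins, cysteine desulfurases and enzymes of methionine synthesis into this list. Its shares are thus not those of sulfate activation and cysteine synthesis alone, for which no separate count was made. Sulfate adenylyltransferase, the first enzyme of the pathway, had 105, 83.0 and 80.2 CPM in Cd50 for A10137, against 148, 141 and 153 CPM in Cd20 (log2 fold change -0.73, SE 0.13, edgeR adjusted p = 0.000439). Adenylyl-sulfate kinase A02658 fell by 0.88 and cysteine synthase A A01333 by 0.47 on the log2 scale, the last not called with library size alone (-0.12). A second sulfate adenylyltransferase, A09027, did not pass (-0.10). The carrier of activated sulfate, A08034, named an adenosine 3'-phospho 5'-phosphosulfate transporter and known to bring that compound into the Golgi in animals, had 24.5, 25.0 and 28.7 CPM in Cd50, against 7.61, 7.15 and 6.97 CPM in Cd20 and a Control mean of 29.9 CPM. The Cd50 libraries were all above the Cd20 libraries and just under the Control mean (log2 fold change 1.85, SE 0.17, edgeR adjusted p = 2.38e-05). Cysteine synthase 2, A00254, was also higher, at 6.36 ± 1.66 CPM in Cd50 and 1.56 ± 0.0785 CPM in Cd20 (SD, n = 3 each).

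Among genes of thiol redox and reactive oxygen, 17 of 28 tested members (60.7%) were higher and 6 (21.4%) lower, where all genes had 35.3% and 34.7%, with a median of 0.40. Peroxiredoxin A10951, named after the peroxide sensor HYR1 of yeast, had 30.1, 31.4 and 35.2 CPM in Cd50, against 14.4, 10.8 and 13.0 CPM in Cd20 and a Control mean of 28.7 CPM. The groups were well apart (log2 fold change 1.34, SE 0.14, edgeR adjusted p = 3.59e-05). Manganese superoxide dismutase A05722, which removes superoxide, rose by 0.94, monodehydroascorbate reductase A00318, which recycles ascorbate, by 0.70 and thioredoxin reductase A06975 by 0.51 on the log2 scale. The catalases, which break down hydrogen peroxide, went in opposite directions. A05091 had 12.6, 11.7 and 8.71 CPM in Cd50, against 5.21, 4.62 and 3.02 CPM in Cd20, whereas A03240 had 331, 275 and 269 CPM in Cd50, against 447, 460 and 463 CPM in Cd20. Neither pair of groups overlapped, and the log2 fold changes were 1.35 and -0.65.

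The largest fall in the redox list was that of cytoplasmic thioredoxin A02873, a small protein that reduces disulfides. It had 72.6, 41.4 and 39.6 CPM in Cd50, against 156, 167 and 198 CPM in Cd20 and a Control mean of 145 CPM. All Cd50 libraries lay under all Cd20 libraries, Cd50 1 highest among them (log2 fold change -1.76, SE 0.21, edgeR adjusted p = 6.62e-05). The thioredoxin-fold gene A07320 fell to 1659 ± 82.1 CPM in Cd50, against 2477 ± 148 CPM in Cd20 (SD, n = 3 each), with a Control mean of 343 CPM. The list also took in ferredoxins by their name, electron carriers that are not thiol enzymes: A03671 fell by 0.63 and A03950 did not pass (-0.07). Without both, which were identified after their values were seen, 17 of 26 members were higher and 5 lower.

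Phosphate carriers fell together. All 5 tested members of the phosphate uptake list were lower, beside 34.7% of all genes, with a median log2 fold change of -1.41, and all 5 stayed lower with library size alone and without Cd50 1. Phosphate permease A08253 lies on chromosome 5 from 3334766 to 3338540 and carries the name of a fungal carrier known to be repressed by phosphate. It had 2024, 1296 and 1234 CPM in Cd50, against 4420, 4785 and 5554 CPM in Cd20 and a Control mean of 3908 CPM. Every Cd50 library was under the Cd20 libraries and under the Control mean (log2 fold change -1.70, SE 0.18, edgeR adjusted p = 3.86e-05). A second gene of the same name, A05085, had 2763, 2013 and 1906 CPM in Cd50, against 5400, 5672 and 6627 CPM in Cd20 (log2 fold change -1.41, SE 0.14, edgeR adjusted p = 2.84e-05). In both genes Cd50 1 was the highest of the Cd50 libraries.

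Inorganic phosphate transporter A03043 had 19, 16 and 14.4 CPM in Cd50, against 50.8, 49.3 and 50.7 CPM in Cd20 and a Control mean of 49.9 CPM. Here Cd20 stood at the Control level and Cd50 far below it (log2 fold change -1.61, SE 0.12, edgeR adjusted p = 9.62e-06). The SPX-domain gene A10153, of a family that senses phosphate supply in plants, fell by 0.59. The fifth member, A08132, is a triose-phosphate transporter, which exchanges sugar phosphates across the plastid envelope rather than taking phosphate into the cell, and fell by 1.18 on the log2 scale.

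Ribosome assembly genes fell. Of 23 tested members of the list of ribosome assembly and nucleolus 16 (69.6%) were lower, beside 34.7% of all genes, and 3 higher, with a median log2 fold change of -0.98 (-0.63 with library size alone). The nucleolar GTP-binding protein A08092, of a family that yeast needs to mature and export the large ribosomal subunit, lies on chromosome 5 from 2441830 to 2446403. It had 250, 81.8 and 79.3 CPM in Cd50, against 502, 525 and 609 CPM in Cd20 and a Control mean of 164 CPM. The groups did not overlap, but Cd50 1 was far above Cd50 2 and 3 (log2 fold change -2, SE 0.38, edgeR adjusted p = 0.000714; -2.76 without Cd50 1).

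The same order of libraries was seen in other assembly factors. Nop7 (A03067), which in yeast is needed to process the RNA of the large subunit, had 37.8, 17.2 and 17.8 CPM in Cd50, against 80.2, 83.2 and 110 CPM in Cd20 and a Control mean of 18.2 CPM. The nucleolar RNA helicase A05195 had 107, 63.5 and 65.6 CPM in Cd50, against 238, 253 and 284 CPM in Cd20 and a Control mean of 182 CPM. Their log2 fold changes were -1.91 (SE 0.28, edgeR adjusted p = 0.00016) and -1.72 (SE 0.19, edgeR adjusted p = 4.34e-05). In both, Cd50 2 and 3 lay close together and Cd50 1 between them and Cd20. The guanine nucleotide-binding protein A05852 (-1.88), brx1 (A02270, -1.69), PNO1 (A07533, -1.6), the RNA methyltransferase nop2 (A04256, -1.55) and the fibrillarin-domain gene A08658 (-1.20), which methylates ribosomal RNA, were lower as well. The members that rose were A00786 (1.64), the methyltransferase A05580 (1.33) and the nucleolar phosphoprotein A01234 (0.62).

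Ribosomal protein genes fell by less, and their direction hung on the scaling: with TMM 41 of 68 were lower and 2 higher (median log2 fold change -0.29), whereas with library size alone 9 were lower and 10 higher (median 0.07). Over all genes 34.7% were lower and 35.3% higher with TMM, and 20.3% and 48.8% with library size alone. With TMM 60.3% of the list were lower, near the 61.9% of the genes at 300 FPKM or more in Control (median -0.36). No comparison with genes of matched level was made. Relative to the median of all genes the list stood at -0.31 with TMM and at -0.32 with library size alone. The summed level of the 68 genes was 78256, 60317 and 66834 CPM in Cd50, against 89586, 77909 and 83194 CPM in Cd20 and 65532 to 73185 CPM in Control. Cd50 1 lay within the Cd20 range, and the other Cd50 libraries lay below it. Scaled by library size alone the same sums were 83300, 71400 and 79900 CPM in Cd50, against 79900, 70400 and 74000 CPM in Cd20. Without Cd50 1 the TMM count of lower members was 57. Ribosomal protein L1 A05165, named for a protein of the large subunit, fell to 7.79 ± 1.81 CPM in Cd50, against 23.6 ± 4.37 CPM in Cd20 (SD, n = 3 each).

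RNA processing genes and protein kinases fell on balance with TMM. In RNA processing and helicases 35 of 56 tested members (62.5%) were lower and 11 (19.6%) higher, where 34.7% of all genes were lower and 35.3% higher. With library size alone 24 were lower and 19 higher, where 20.3% of all genes were lower and 48.8% higher. Relative to the median of all genes the list stood at -0.55 with TMM and at -0.56 with library size alone. The ATP-dependent RNA helicase A03862 fell to 126 ± 38.6 CPM in Cd50, against 333 ± 33.0 CPM in Cd20, while the Sm-like protein A00365, of the ring proteins that bind small nuclear RNAs, rose to 28.4 ± 4.67 CPM in Cd50, against 13.2 ± 1.51 CPM in Cd20 (SD, n = 3 each). Of 62 protein kinases and phosphatases 33 (53.2%) were lower and 12 (19.4%) higher, and with library size alone 23 and 21. Their median relative to that of all genes was -0.51 with either scaling. The serine/threonine kinase A01218 fell by 1.30 and the cyclin-dependent kinase A01325 by 1.13 on the log2 scale, whereas cyclin-dependent kinase A09250 rose by 1.55 and the mps one binder A08724, which activates kinases, by 1.74.

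Translation factors were evenly divided with TMM, at 23 higher and 23 lower of 54 tested (42.6% each, beside 35.3% and 34.7% of all genes). With library size alone 26 were higher and 12 lower, where 48.8% of all genes were higher and 20.3% lower. Elongation factor 1 alpha A03449, which brings aminoacyl-tRNA to the ribosome, had 4157, 3067 and 2930 CPM in Cd50, against 7067, 7220 and 7713 CPM in Cd20 and a Control mean of 5361 CPM. No library of Cd50 reached the Cd20 range (log2 fold change -1.12, SE 0.13, edgeR adjusted p = 6.29e-05). By contrast the mitochondrial translation factor GUF1 (A03094) rose to 10.1 ± 2.19 CPM in Cd50, against 2.84 ± 0.424 CPM in Cd20, and the glutamate-tRNA ligase A02671 to 41.5 ± 8.61 CPM in Cd50, against 22.2 ± 4.46 CPM in Cd20 (SD, n = 3 each).

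**Figure D3:**
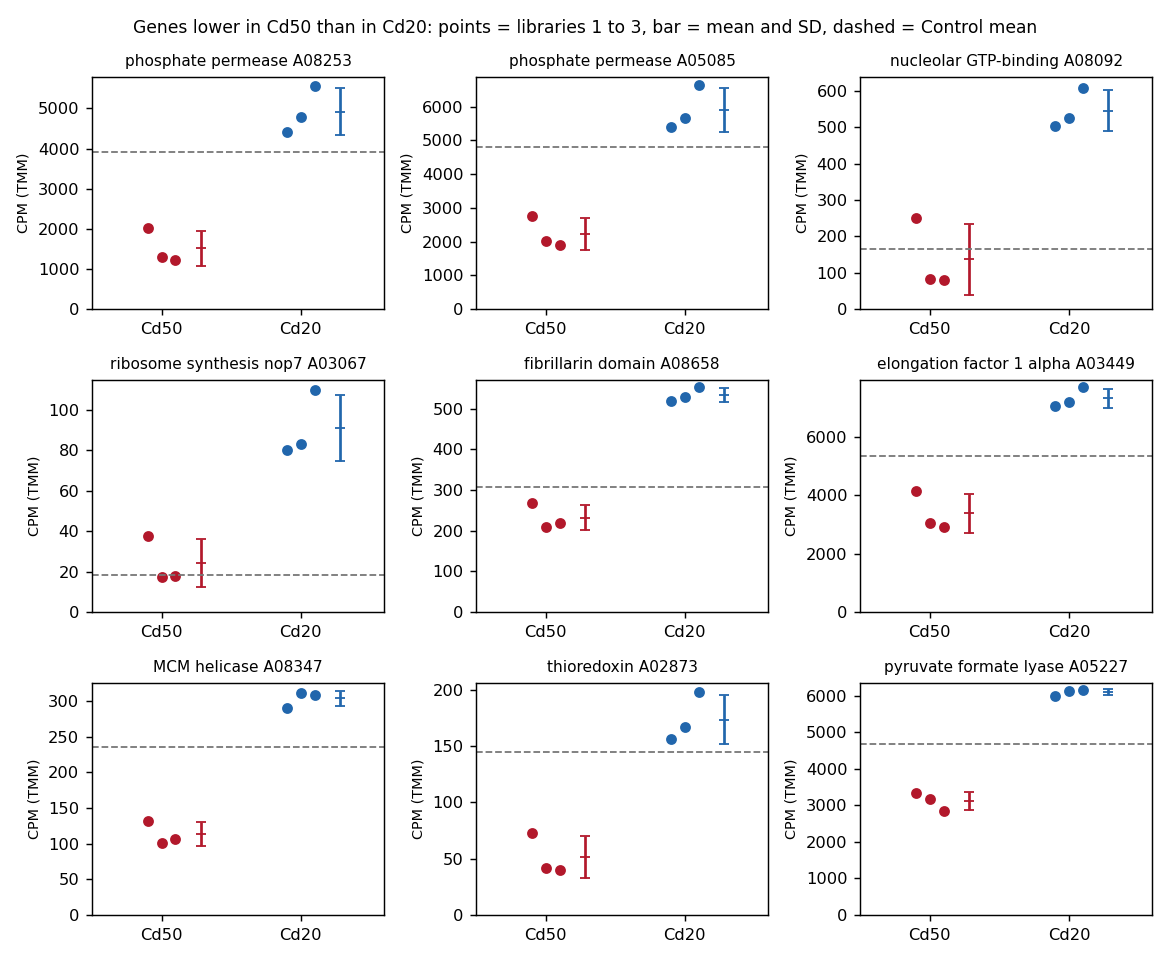
CPM with TMM (vertical axis, from 0) of 9 genes that were lower in Cd50: points are libraries 1 to 3 of Cd50 (red, left) and Cd20 (blue, right), bars the mean and SD, dashed lines the Control mean. No panel has overlapping groups, and in the nucleolar GTP-binding gene A08092 the first Cd50 library, at 250 CPM, stands above the others at 81.8 and 79.3 CPM.

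The DNA replication list had 14 higher (42.4%) and 9 lower (27.3%) among 33 tested members, near the 35.3% and 34.7% of all genes, and its members parted by complex. The MCM genes, which encode subunits of the helicase that opens DNA for replication, included A08347 with 132, 101 and 106 CPM in Cd50, against 291, 311 and 309 CPM in Cd20 and a Control mean of 236 CPM. The groups were far apart (log2 fold change -1.43, SE 0.12, edgeR adjusted p = 1.52e-05). A07504 (-1.17), A07731 (-0.99) and A07246 (-0.44, and -0.07 without a call under library size alone) were lower too, while mcm9, A07407, a relative with a part in repair in animals, was higher (0.58). Ribonucleoside-diphosphate reductase A08842, counted in the RNA list by its name and making deoxynucleotides, fell by 1.29 on the log2 scale.

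Replication factor C, the clamp loader that places the sliding clamp on DNA, went the other way. Subunit 4, A02430, had 17.3, 21.1 and 20.1 CPM in Cd50, against 7.23, 4.79 and 5.52 CPM in Cd20 and a Control mean of 13.5 CPM (log2 fold change 1.74, SE 0.24, edgeR adjusted p = 0.000111). A07498, A04482 and A03799, of the same complex, rose by 1.56, 1.28 and 0.99. DNA ligase A07832 rose by 1.23 and DNA polymerase zeta A04228, which copies past damaged bases, by 1.17 on the log2 scale. The sliding clamp genes themselves were divided: A06727 was higher (0.66) and A00032 lower (-0.37, and -0.01 without a call under library size alone). The call of A00032 was also lost without Cd50 1 (-0.28), Cd50 2 (-0.37), Cd20 1 (-0.34) or Cd20 2 (-0.34).

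Genes of sugar and starch metabolism rose on balance. Of 48 members of the list for glycolysis and the citrate cycle 27 (56.2%) were higher and 12 (25.0%) lower, and of 15 in the list for pentose phosphate and starch 10 (66.7%) were higher and 2 (13.3%) lower, where all genes had 35.3% and 34.7%. The pentose phosphate and starch list also took in tubulin polyglutamylases by a part of their name. Without 2 tested members that do another task, set aside after their values were seen, 9 of 13 were higher and 2 lower. The branching enzyme A04145, which adds branch points to starch, lies on chromosome 1 from 1318445 to 1327390. It had 82.2, 88.1 and 81.5 CPM in Cd50, against 20.0, 22.2 and 19.0 CPM in Cd20 and a Control mean of 101 CPM. The groups were widely separated with little spread within each (log2 fold change 2.04, SE 0.21, edgeR adjusted p = 3.25e-05).

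In glycolysis, triosephosphate isomerase A09252 had 2062, 2183 and 2184 CPM in Cd50, against 1222, 1157 and 1118 CPM in Cd20 and a Control mean of 2052 CPM. Cd50 was at the Control level and Cd20 below it (log2 fold change 0.88, SE 0.09, edgeR adjusted p = 3.61e-05). A second isomerase gene, A10105, rose by 1.69 and the aldolases A00135 and A04092, which split fructose bisphosphate, by 0.78 and 0.66. Glyceraldehyde-3-phosphate dehydrogenase A03980 rose by 0.55, whereas A02374 of the same name fell by 0.85 on the log2 scale. Enolase A00562 did not pass (0.23), except without Cd20 3 (0.31) and under other scalings.

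In the citrate cycle, NAD-dependent isocitrate dehydrogenase A00711 had 50.2, 61.3 and 59.7 CPM in Cd50, against 22.2, 23.4 and 18.2 CPM in Cd20 and a Control mean of 52.0 CPM (log2 fold change 1.42, SE 0.15, edgeR adjusted p = 3.19e-05). A01004 (1.32), fumarate hydratase A03020 (1.31) and succinyl-CoA synthetase A02893 (1.18) were higher as well. Citrate synthase A06268 (0.04), aconitase A03452 (0.09) and 2-oxoglutarate dehydrogenase A05803 (-0.05) did not pass, and malate dehydrogenase A10995 was lower (-0.67). The steps that passed and those that did not thus lay side by side in 1 pathway. For NADPH supply, glucose-6-phosphate dehydrogenase A04681, the entry to the pentose phosphate pathway, had 50.0, 59.1 and 52.4 CPM in Cd50, against 20.7, 22.3 and 20.8 CPM in Cd20 and a Control mean of 98.9 CPM (log2 fold change 1.34, SE 0.12, edgeR adjusted p = 2.05e-05). A second dehydrogenase gene, A05256, and 6-phosphogluconate dehydrogenase A05886 rose by 0.58 and 0.61. The members of this list that fell were a weakly expressed 6-phosphogluconate dehydrogenase gene, A10622, with 1.62, 0.22 and 0.55 CPM in Cd50, against 4.72, 5.66 and 4.48 CPM in Cd20, and the glycogen debranching gene A02143. Their log2 fold changes were -2.69 and -0.30 (edgeR adjusted p = 0.00122 and 0.0112), and that of A02143 turned to 0.05, without a call, with library size alone.

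Several genes of fermentation, which green algae such as Chlamydomonas use without oxygen, were lower. They formed no list of their own and were chosen after their values were seen. Pyruvate formate lyase A05227, which splits pyruvate into formate and acetyl-CoA, lies on chromosome 2 from 1891125 to 1895177. It had 3343, 3183 and 2851 CPM in Cd50, against 6000, 6137 and 6154 CPM in Cd20 and a Control mean of 4687 CPM. Its values within each group were close and the groups far apart (log2 fold change -0.96, SE 0.09, edgeR adjusted p = 1.83e-05). Formate C-acetyltransferase A00596, another name for this enzyme, fell by 1.03, the activating enzyme A03913 by 0.73 and alcohol dehydrogenase A06790 by 0.69 on the log2 scale. The lyase and acetyltransferase genes, whose reads could be shared, together had 6117, 5796 and 5273 CPM in Cd50, against 11119, 11451 and 11625 CPM in Cd20 and 8454 to 8810 CPM in Control.

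Not every fermentation gene fell. Hydrogenase A03534, which makes hydrogen in the absence of oxygen, had 660 ± 37.4 CPM in Cd50 and 703 ± 67.5 CPM in Cd20 (SD, n = 3 each) and did not pass. Pyruvate decarboxylase A00981, which leads from pyruvate towards ethanol, had 188 ± 17.3 CPM in Cd50 and 164 ± 8.54 CPM in Cd20 (SD, n = 3 each) and did not pass (0.19), while the alcohol dehydrogenase GroES domain gene A00980 was higher (0.99). Acetate kinase A00532 had 25.3, 37.3 and 36.8 CPM in Cd50, against 22.5, 25.9 and 21.1 CPM in Cd20. It was called higher (log2 fold change 0.52, SE 0.19, edgeR adjusted p = 0.0285) although Cd50 1 fell within the Cd20 range, and it was not called without Cd50 2 (0.43), Cd50 3 (0.44), Cd20 1 (0.53) or Cd20 3 (0.46). The hybrid cluster protein A02343, an iron-sulfur protein of anaerobic nitrogen metabolism in bacteria, had 5556, 5661 and 5316 CPM in Cd50, against 9362, 9220 and 9065 CPM in Cd20 and a Control mean of 7655 CPM (log2 fold change -0.74, SE 0.08, edgeR adjusted p = 3.25e-05). The pyruvate formate lyase genes had been drawn into the glycolysis list by a word in their name. With these and the other members of another task set aside, after their values were seen, 22 of 36 remaining glycolysis and citrate cycle genes were higher and 5 lower.

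**Figure D4:**
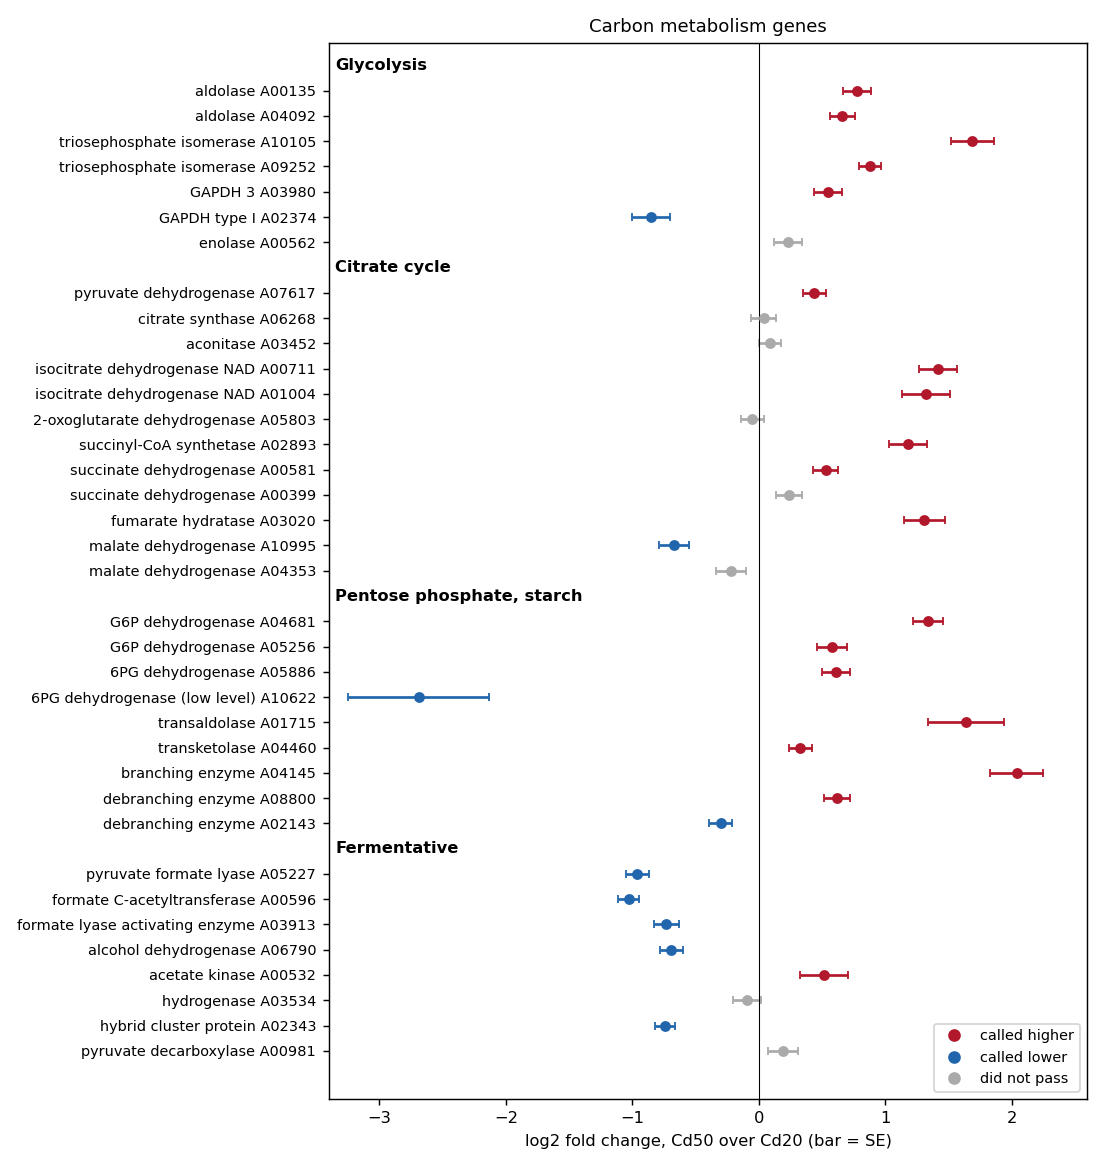
Log2 fold change of Cd50 over Cd20 with TMM (horizontal axis, bar = SE) of carbon genes chosen after their values were seen and ordered by pathway step; red was called higher, blue lower, grey not passed. Of the pentose phosphate and starch genes shown, only A10622 at -2.69 and A02143 at -0.30 lie left of 0.

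Photosynthesis genes showed no common direction. In the list of photosynthetic carbon fixation and electron transport 3 of 7 tested members were higher and 1 lower, beside 35.3% and 34.7% of all genes. Carbonic anhydrase A10519, which interconverts carbon dioxide and bicarbonate, had 88.8, 104 and 98.9 CPM in Cd50, against 42.5, 30.8 and 38.5 CPM in Cd20 and a Control mean of 129 CPM (log2 fold change 1.38, SE 0.13, edgeR adjusted p = 2.63e-05). The Rubisco small subunit A03462 was higher by 0.24 (SE 0.09, edgeR adjusted p = 0.0363), a call lost without Cd50 1 (0.14), Cd20 2 (0.20), Cd20 3 (0.25) or Control 3 (0.24), and the fructose-1,6-bisphosphatase A08799 did not pass (0.05). Of the 13 tested chlorophyll a-b binding genes, which encode the light-harvesting antenna, 6 were higher and 3 lower. With library size alone, where 48.8% of all genes were higher and 20.3% lower, 7 antenna genes were higher and 0 lower. Their summed level was 883, 839 and 839 CPM in Cd50, against 868, 756 and 714 CPM in Cd20 and 797 to 888 CPM in Control, so that the groups overlapped.

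In pigment synthesis, chlorophyll synthase A03155, which attaches the phytol tail, had 60.2, 65.1 and 72.9 CPM in Cd50, against 28.7, 28.5 and 27.6 CPM in Cd20 and a Control mean of 49.5 CPM (log2 fold change 1.22, SE 0.13, edgeR adjusted p = 3.25e-05). Coproporphyrinogen oxidase A07916, an earlier step shared with heme, fell to 126 ± 4.05 CPM in Cd50, against 217 ± 4.78 CPM in Cd20 (SD, n = 3 each). Among the 6 tetrapyrrole genes 3 were higher and 2 lower, beside 35.3% and 34.7% of all genes. One of the lower genes (A07083) is a protein prenylation enzyme. Beta-carotene ketolase A05367, which puts keto groups on carotenoids on the way to astaxanthin, had 98.4, 47.9 and 46.2 CPM in Cd50, against 160, 155 and 181 CPM in Cd20 and a Control mean of 128 CPM. No Cd50 library reached Cd20, Cd50 1 again being the highest of its group (log2 fold change -1.37, SE 0.28, edgeR adjusted p = 0.00116). A second ketolase, A10744, was lower with overlapping groups (-1.22, edgeR adjusted p = 0.0276) and did not pass with library size alone. Without Cd50 1 its value was -2.04. It was not called without Cd50 2 (-0.94), Cd50 3 (-0.88), Cd20 1 (-1.12) or Cd20 2 (-1.11).

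The list of chaperones and heat shock had 22 higher (47.8%) and 11 lower (23.9%) among 46 tested members, where all genes had 35.3% and 34.7%. Without 7 members that do another task, set aside after their values were seen, 18 of 39 were higher and 10 lower. By product name, in a division made after the values were seen, 8 of 14 heat shock proteins (DnaK and HSP20-like genes with them) were lower and 1 higher. All 8 genes of chaperonins and their small partner proteins were higher, as were 9 of 12 peptidyl-prolyl isomerases, with 1 lower. With library size alone the heat shock proteins had 3 lower and 4 higher, where 20.3% of all genes were lower and 48.8% higher. The chaperonins were still all 8 higher. DnaK A03630, a chaperone of the HSP70 family, had 1741, 1286 and 1210 CPM in Cd50, against 2838, 2997 and 3114 CPM in Cd20 and a Control mean of 2134 CPM (log2 fold change -1.08, SE 0.14, edgeR adjusted p = 9.16e-05). The hsp82-like gene A06936, of the HSP90 family, fell to 1188 ± 115 CPM in Cd50, against 2181 ± 67.0 CPM in Cd20 and a Control mean of 1066 CPM (SD, n = 3 each). Chaperonins of the Cpn60/TCP-1 family, ring-shaped folding chambers, rose by 0.94 in A05212, 0.88 in A01769, 0.59 in A03644 and 0.48 in A06838, and the GroL genes A07214 and A10168 rose by 0.38 and 0.30. The call of A10168 was lost without Cd50 2 (0.26), Cd50 3 (0.27) or Cd20 3 (0.24). Peptidyl-prolyl isomerase cyp5 (A10595), which speeds a slow step of folding, rose by 1.17 on the log2 scale.

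Flagellar genes rose. Of 14 tested members of the list of flagella and axoneme 10 were higher and 0 lower, beside 35.3% and 34.7% of all genes. The axonemal dynein heavy chain A07233, a motor that bends the flagellum, had 46.0, 63.7 and 59.1 CPM in Cd50, against 24.5, 24.8 and 26.8 CPM in Cd20 and a Control mean of 72.3 CPM. All Cd50 libraries were above Cd20 and under the Control mean (log2 fold change 1.15, SE 0.18, edgeR adjusted p = 0.000225). The heavy chains A01575, A02273, A06629 and A09251 rose by 1.02, 1.0, 0.85 and 0.35, while A04269 (0.18) did not pass. The call of A09251 was lost without Cd50 2 (0.28), Cd50 3 (0.31), Cd20 1 (0.36) or Cd20 3 (0.29). The list also holds dynein light and intermediate chains whose names do not place them in the axoneme. Without 4 such members, set aside after their values were seen, 8 of 10 were higher. The alpha and beta tubulin genes, whose products form the microtubules of flagella and spindle alike, were lower: alpha tubulin A02279 had 1212 ± 168 CPM in Cd50 and 2418 ± 138 CPM in Cd20, and beta tubulin A07845 had 548 ± 36.3 CPM in Cd50 and 916 ± 22.4 CPM in Cd20 (SD, n = 3 each). A further gene named only by a tubulin domain was not called lower.

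**Figure D5:**
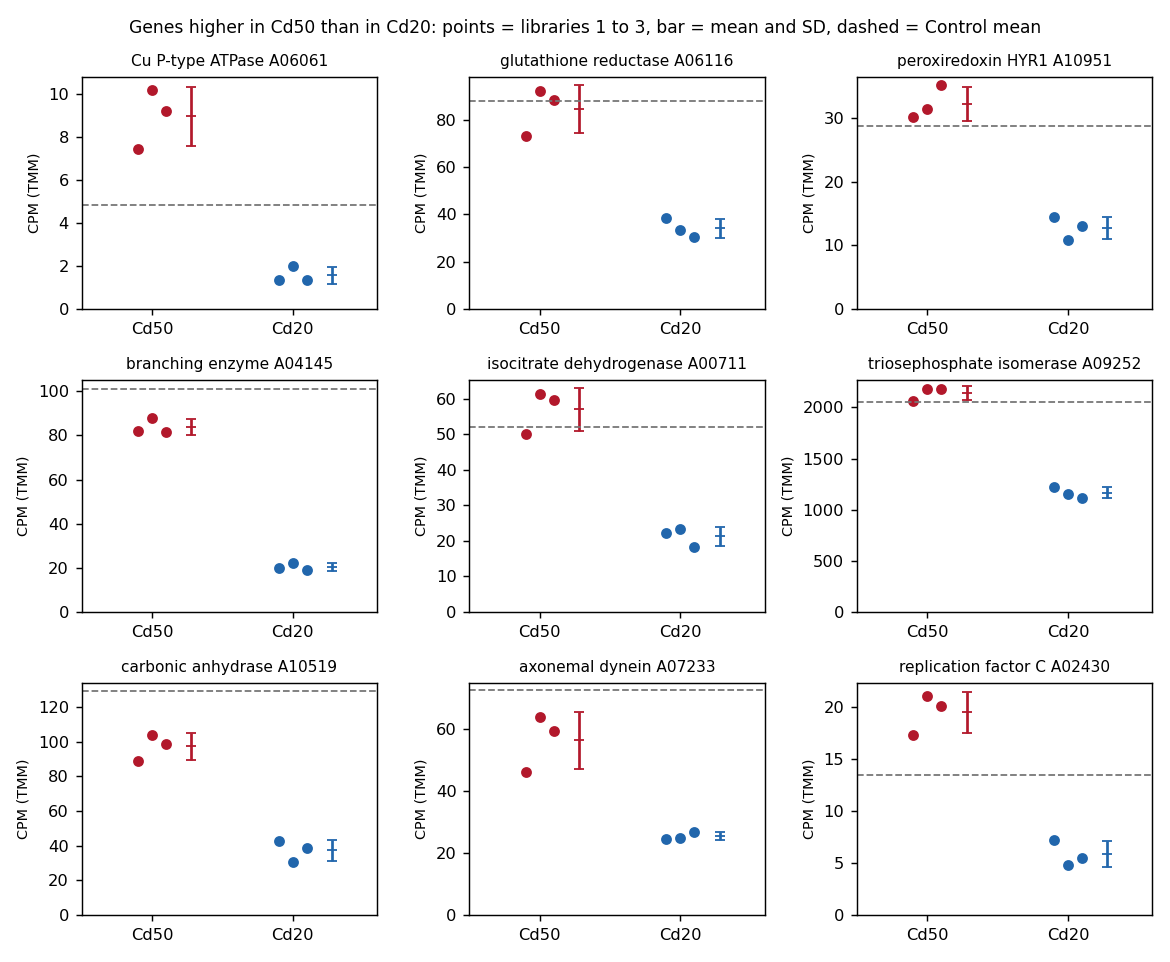
CPM with TMM (vertical axis, from 0) of 9 genes that were higher in Cd50: points are libraries 1 to 3 of Cd50 (red, left) and Cd20 (blue, right), bars the mean and SD, dashed lines the Control mean. No panel has overlapping groups, and in the Cu-transporting ATPase A06061 Cd50 lies at 7.46 to 10.2 CPM against a Control mean of 4.84 CPM.

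Among described genes at 10 CPM or more, the largest rise was that of the aminotransferase A05058, of a family that moves amino groups between amino acids and keto acids, on chromosome 2 from 6588 to 10750. It had 51.6, 67.6 and 75.1 CPM in Cd50, against 12.1, 12.5 and 12.4 CPM in Cd20 and a Control mean of 35.7 CPM (log2 fold change 2.39, SE 0.25, edgeR adjusted p = 3.67e-05). The FMN-linked oxidoreductase A02714 had 49.2, 62.4 and 60.2 CPM in Cd50, against 13.3, 10.5 and 10.6 CPM in Cd20 and a Control mean of 24.9 CPM (log2 fold change 2.32, SE 0.29, edgeR adjusted p = 7.4e-05). In both genes the Cd50 libraries exceeded the Control mean and the Cd20 libraries lay below it. The reductase list as a whole had 30 higher (52.6%) and 12 lower (21.1%) among 57 tested members, beside 35.3% and 34.7% of all genes.

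In lipid metabolism 18 of 31 tested members (58.1%) were higher and 5 (16.1%) lower, where all genes had 35.3% and 34.7%. The thiolase-domain gene A04643, of a family that splits or joins acyl chains at their end, had 32, 40 and 39.6 CPM in Cd50, against 11.6, 9.06 and 8.02 CPM in Cd20 and a Control mean of 25.8 CPM (log2 fold change 1.96, SE 0.19, edgeR adjusted p = 2.48e-05). The ketoacyl synthase A07938, which lengthens fatty acid chains, rose by 1.6, and, outside the list, the carboxyl transferase-domain gene A09561 by 2.14. The long-chain acyl-CoA synthetase A02008, which activates fatty acids, fell by 0.73 on the log2 scale. Vesicle traffic had 11 higher (29.7%) and 18 lower (48.6%) of 37 tested members. With library size alone 17 were higher and 11 lower, where 48.8% of all genes were higher and 20.3% lower. Relative to the median of all genes the vesicle list stood at -0.17 with either scaling. In this list the small GTPase Rab-7 (A03503), which directs traffic to the vacuole or lysosome, rose to 100 ± 8.52 CPM in Cd50, against 45.0 ± 1.70 CPM in Cd20 (SD, n = 3 each).

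The cytoskeleton list had 8 higher (50.0%) and 4 lower (25.0%) of 16 tested members, where all genes had 35.3% and 34.7%, with a median of 0.45. Of its 8 kinesins, motors that walk along microtubules, 5 were higher and 1 lower, and without Cd50 1 the numbers were 7 and 1; kif9, A07303, rose by 1.58. The alpha and beta tubulins given above and the actin depolymerizing factor A04845 (-0.64) were lower.

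In 6 further lists the median lay within 0.12 of that of all genes on the log2 scale. Over all genes 35.3% were higher and 34.7% lower. Ubiquitin and proteasome had 16 higher and 14 lower of 40, the respiratory chain 13 and 8 of 31, amino acid metabolism 14 and 13 of 36, other transporters 9 and 8 of 32, and peptidases 8 and 8 of 29. Cell wall and glycan enzymes had 13 higher (43.3%) and 5 lower (16.7%) of 30, a smaller share of falls than over all genes. By words in their names, mitochondrial carriers and cytochrome b5 genes were counted in the respiratory chain list. The carriers were counted among other transporters as well, and DNA glycosylases among the glycan enzymes. These lists were not recounted without such members, so their shares do not describe the named pathways alone. Examples from these lists were the ubiquitin hydrolase A00698 (1.39), the vacuolar ATP synthase subunit A10379 (1.13), the permease A09193 (-1.09), the cysteine proteinase A07309 (-1.06) and the GDP-mannose dehydratase A04624 (-1.01), each called with edgeR at an adjusted p of 0.00019 or less. In transcription and chromatin 13 were higher (32.5%) and 11 lower (27.5%) of 40 tested. The other 47 members, mostly histone genes, had too few counts for the test, with 68, 55 and 59 counts in sum in Cd50 against 67, 55 and 44 in Cd20.

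At 10 CPM or more, the largest rises and falls were those of genes without a product name. Novel01144, a locus assembled outside the reference annotation on chromosome 4 from 5793471 to 5794772, had 12.7, 18.1 and 18.6 CPM in Cd50, against 0.675, 0.523 and 0.729 CPM in Cd20 and a Control mean of 5.33 CPM (log2 fold change 4.67, SE 0.54, edgeR adjusted p = 5.13e-05). Novel01339 had 101, 143 and 131 CPM in Cd50, against 11.8, 9.33 and 8.12 CPM in Cd20 and a Control mean of 109 CPM. A00728 had 71.3, 86.5 and 74.9 CPM in Cd50, against 6.46, 5.93 and 6.25 CPM in Cd20 and a Control mean of 65.5 CPM. In the last 2 genes Cd50 stood near the Control mean and Cd20 far below it, with log2 fold changes of 3.68 and 3.64.

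Among the falls, A03191 had 8.81, 2.71 and 3.06 CPM in Cd50, against 31.7, 37.0 and 42.3 CPM in Cd20 and a Control mean of 20.3 CPM (log2 fold change -2.96, SE 0.40, edgeR adjusted p = 0.000103). A00351 had 220, 54.1 and 53.5 CPM in Cd50, against 557, 597 and 826 CPM in Cd20 and a Control mean of 244 CPM. Its first Cd50 library lay several-fold above the others but under every Cd20 library (log2 fold change -2.60, and -3.62 without Cd50 1). Without that library A03191 stood at -3.68.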

How the data were processed

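Reads were not realigned. Cultures had 0, 20 or 50 mg/L CdCl2 for 7 days, with 3 dUTP libraries of poly(A) RNA a group, per the labels. Per the submitters' processing notes, STAR 2.7.10a, StringTie 2.2.1 and DESeq2 1.34.0 were used. The genome assembly, the annotation, the counter and whether it used strand were not given in the sources used here. The deposited counts are raw and cover 12605 genes, 219 of them without a count. The deposited FPKM values, recomputed from counts, lengths and column totals, lay within 1% in 100.0% of cases; the deposited lengths are multiples of 3 in 100.0% of annotated genes, so these are coding lengths, and in 34.8% of the loci assembled outside the annotation. The authors' deposited table for this contrast gives log2 fold changes and p-values of 7430 genes, of which 7318 (98.5%) were also called here, all in the same direction.

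The test was edgeR's quasi-likelihood F-test (version 4.0.16, in R 4.3.3) with TMM factors, filterByExpr and a group term only. All 9 libraries entered the fit so that the groups share 1 estimate of spread (biological coefficient of variation 0.139), and p-values were Benjamini-Hochberg adjusted over 11140 genes; the filter removed 1465. The procedure was checked on simulated counts. Only 200 genes were changed in them, far fewer than the 7793 called in the data, so that check cannot bear on the choice of scaling. Alternatives used DESeq2 1.42.0 and limma 3.58.1 on log2 FPKM (pseudocounts 1 and 0.1) and log2 CPM. No 2 libraries of a group were duplicates: the chi-square per degree of freedom between them was 3.96 to 32.1.

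The comparison, the lists and the rule for naming genes were chosen with earlier results of these data known. The rule named 159 genes: the 8 largest rises and falls at 10 CPM or more without overlap, 15 rises and falls with an informative product, up to 2 of lowest adjusted p per list each way, all members of lists with 8 or fewer, and the 5 largest CPM differences each way. Genes named outside it, among them many of those set beside a rule-named gene of the same family, were chosen after their values were seen. The text names 144 genes in all, so not every gene named by the rule is given.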

Additional observations from a re-analysis of the deposited data

How the results depend on the processing

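Scaling mattered most. In place of 3928 higher and 3865 lower genes, library size alone gave 5440 and 2262, limma on log2(FPKM + 1) 5415 and 2271, and limma on log2(FPKM + 0.1) 5413 and 2269; the FPKM fits share the scaling of library size. At 2-fold or more, in place of 1865 and 1038, library size alone gave 3088 and 402, upper quartile factors 2682 and 514, limma with a pseudocount of 1 2247 and 340, and with 0.1 2995 and 422. TMM factors were 1.065 to 1.196 in Cd50 and 0.890 to 0.904 in Cd20; which scaling is nearer to the cells was not tested. Removing each library in turn gave 3420 to 4158 higher and 3341 to 4124 lower genes, with 1670 to 2141 and 802 to 1577 at 2-fold, the largest numbers without Cd50 1. DESeq2 gave 3725 and 3970.

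Of the 144 genes named, 130 were called and 118 of them were called in all 20 alternatives. With library size alone and both FPKM fits, the phytochelatin synthase gene A02769 turned to 0.1 and the debranching gene A02143 to 0.05, both without a call. Of the 14 genes not called, 13 were called higher in at least 1 alternative, library size alone among them, and the hydrogenase A03534 in none. In 4 of the 13 the sign turned with library size, FPKM + 1 and FPKM + 0.1: A03950 (0.29, 0.29, 0.29), A05803 (0.31, 0.30, 0.30), A08104 (0.29, 0.28, 0.29) and A09027 (0.26, 0.25, 0.26).

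Replicate numbers did not pair the libraries: residuals of same-numbered Cd50 and Cd20 libraries correlated at -0.214, 0.132 and -0.218, and only number 2 correlated best with its own. A replicate block gave 3966 higher and 3978 lower genes with 9 libraries, and 3824 and 3419 with 6.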

Other observations

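Chromosomes were compared by their counts, with no test. Over the 17 chromosomes the median log2 fold change lay between -0.24 and 0.19. The share of tested genes higher in Cd50 than in Cd20 was 27.9% on chromosome 17, where 41.1% were lower and the median log2 fold change was -0.24. It was 42.4% on chromosome 13, where 32.8% were lower and the median was 0.19. Loci assembled outside the reference annotation numbered 1576, of which 1477 were tested, 524 higher (35.5%) and 423 lower (28.6%). Genes without an informative product divided into 2929 higher (34.8%) and 2992 lower (35.6%) of 8406 tested, where all genes had 35.3% and 34.7%.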
